A study of Homo sapiens with 11 samples.

Results

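The genes described here are CXCL1, CXCL2, CXCL3, CXCL5, CXCL6 and CXCL8, which encode secreted chemokines that draw neutrophils. They are 6 of the 19775 genes and 11 of the 54675 probe sets measured on 11 arrays. A probe set was taken where its annotation named exactly 1 of these symbols, and the probe sets of a gene were averaged. The genes were chosen by measured values of these same arrays, those of the BSA array and of the E2-BSA arrays against arrays without E2-BSA. Their differences in these comparisons are therefore given as a description, and no test of them supports anything.

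As background, these proteins are CXC chemokines with the motif ELR before their first cysteines, and they act on the receptors CXCR2 and, for CXCL6 and CXCL8, also CXCR1, which neutrophils carry. CXCL1, CXCL2 and CXCL3 are close paralogs, the GRO chemokines, CXCL5 and CXCL6 form another close pair, and CXCL8 is interleukin 8. Their genes lie in 1 cluster on chromosome 4, are transcribed within hours of signals such as interleukin 1 or TNF through NF-kB, and give short-lived mRNAs with AU-rich elements. CXCL8 and CXCL1 are known as products of aggressive breast cancer lines.

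The cells were MDA-MB-231, an established human breast cancer line that is triple-negative, with little or no estrogen receptor alpha, and RNA was read on Affymetrix arrays covering most human genes. Per the labels, all cells spent 4 h under 10% serum stripped with charcoal, which removes steroids, and then 3 h with or without an agent. The treated groups were E2-BSA at 1 µM with 2 arrays, and with 1 array each the conjugate combined with ICI, the conjugate combined with G15, estradiol at 1 µM, BSA at 1 µM, ethanol at 0.1%, ICI at 10 µM and G15 at 10 µM. The untreated control had 2 arrays. E2-BSA is estradiol coupled to bovine serum albumin, meant to reach surface receptors from outside, G15 is an antagonist of the receptor GPER, and ICI is an antagonist known here by that abbreviation alone. Nothing in the labels says that duplicate arrays stem from different cultures, and p-values measure only the spread between these arrays. Every value is a log2 value relative to a midpoint of its own probe set. Differences between arrays can be given, but no level of a gene, and no member can be ranked by abundance against another. In such bulk RNA, fewer cells that make a transcript and less of it per cell cannot be told apart.

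The arrays fell into sets of 3 and 8 by their poly-A spike-in controls, which are bacterial RNAs put in ahead of labelling and averaged 1.40 to 1.62 in the first E2-BSA, the estradiol and the first control array and -0.56 to 0.10 in the other 8. The 0.10 is that of E2-BSA with G15, and the next highest in the set of 8, G15 alone, stood at -0.29. E2-BSA with G15 also had the widest spread of all probe sets in the set of 8, at an SD of 0.32 against 0.24 to 0.30. The labels name no batch. The BSA array had the highest 3′ minus 5′ signal of the control genes GAPDH and ACTB, at 0.20 against -0.19 to 0.09 in the other 10 arrays, and the highest median of all genes, at 0.10 against -0.07 to 0.07. The ethanol array had the highest hybridisation controls, at 0.77 against -0.28 to 0.21. The 11 leukocyte markers measured, of 13 listed, summed to 0.05 to 2.52 in the set of 3 and to -1.79 to 1.17 in the set of 8, and to 0.50 in the BSA array. Since values are relative, the presence of the line's markers or the absence of leukocyte markers cannot be checked. The part of any of these measures in the results was not tested.

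On GRCh38.p14 the 6 genes span 358.6 kb of chromosome 4, in the order CXCL8 (73740569 to 73743716), CXCL6 (73836678 to 73838760), CXCL1 (73869393 to 73871308), CXCL5 (73995642 to 73998677), CXCL3 (74036589 to 74038689) and CXCL2 (74097040 to 74099195). Because 4 of the 6 moved together across arrays and 2 hardly moved, the 120 bases before each start site are shown, from RefSeq on that build, with the 9 letters of an NF-kB core, GGAATTTCC, and a TATA-type element, TATAAA or CATAAA, in capitals where found. The windows are chr4:73869273-73869392, plus strand, for CXCL1, chr4:74099196-74099315, minus strand, for CXCL2, chr4:74038690-74038809, minus strand, for CXCL3, chr4:73998678-73998797, minus strand, for CXCL5, chr4:73836558-73836677, plus strand, for CXCL6, and chr4:73740449-73740568, plus strand, for CXCL8.
CXCL1: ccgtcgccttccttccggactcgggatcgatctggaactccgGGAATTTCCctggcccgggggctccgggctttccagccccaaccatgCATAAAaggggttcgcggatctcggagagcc
CXCL2: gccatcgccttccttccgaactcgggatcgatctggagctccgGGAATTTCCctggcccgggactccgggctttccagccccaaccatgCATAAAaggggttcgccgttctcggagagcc
CXCL3: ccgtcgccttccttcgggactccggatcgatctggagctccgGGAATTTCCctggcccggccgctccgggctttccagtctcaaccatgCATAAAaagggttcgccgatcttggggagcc
CXCL5: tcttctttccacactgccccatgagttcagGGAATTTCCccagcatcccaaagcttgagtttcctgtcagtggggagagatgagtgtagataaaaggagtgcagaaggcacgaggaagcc
CXCL6: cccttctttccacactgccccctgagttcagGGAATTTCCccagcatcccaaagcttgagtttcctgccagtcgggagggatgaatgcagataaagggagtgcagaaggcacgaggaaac
CXCL8: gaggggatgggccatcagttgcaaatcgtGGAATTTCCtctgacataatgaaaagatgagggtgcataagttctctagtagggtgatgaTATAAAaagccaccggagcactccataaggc
All 6 windows hold GGAATTTCC on the gene's own strand, with its first base 78 bases upstream of the start in CXCL1 and CXCL3, 77 in CXCL2, 90 in CXCL5, 89 in CXCL6 and 91 in CXCL8. Of 35116 RefSeq promoters, each 250 bases before to 50 after a start, 162 (0.461%) hold these letters on either strand. CXCL1, CXCL2 and CXCL3 share CATAAA at 31 bases upstream (10.6% of promoters) and GGGCTTTCC at 53 bases (0.629%). GGGCTTTCC was searched as a stretch of CXC chemokine promoters and not as the letters of a named site, so nothing is read from its share. CXCL8 alone of the 6 has TATAAA, at 31 bases upstream (11.5% of promoters), and TGACTCA, the letters of an AP-1 site, at 137 bases (4.95%), outside the window shown. GGGCGG, the letters of a GC box, is in the full promoters of CXCL1, CXCL3 and CXCL6 and in 45.0% of all. These shares count either strand, and the matches do not overlap one another. Over 69 bases centred on GGAATTTCC, CXCL1 and CXCL3 share 89.9% of bases, CXCL5 and CXCL6 share 95.7%, and CXCL1 and CXCL5 share 43.5%. The stretches were lined up at these 9 letters, which therefore match in every pair. The windows of CXCL5 and CXCL6 hold gataaa at about the place of CATAAA or TATAAA in the other members. Those letters were not searched for and stand in lower case, so missing capitals do not mean that a TATA-type element is missing. The NF-kB letters do not part the members that moved from those that did not, and a match describes letters, not binding.

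CXCL1, the first of the GRO chemokines in the cluster, was read by 204470_at alone. In the set of 3 it stood at 2.71 in the first E2-BSA array and 1.10 in the estradiol array, against 0.82 in the first control array. In the set of 8 it stood at 3.54 in the BSA array, -0.74 with E2-BSA and G15, -1.19 with E2-BSA and ICI, -1.30 in the second E2-BSA array, -1.66 in ethanol, -2.03 in ICI and -2.58 in G15, against -2.08 in the second control array. The BSA array was the highest of all 11, and each array with E2-BSA lay above every array of its set that had neither E2-BSA nor BSA.

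CXCL3, another GRO chemokine, was also read by 1 probe set, 207850_at. It stood at 1.75 in the first E2-BSA array and 0.29 in the estradiol array, against 0.50 in the first control array. In the set of 8 it stood at 2.39 in BSA, -0.08 in ethanol, -0.74 with E2-BSA and G15, -1.13 with E2-BSA and ICI, -1.25 in the second E2-BSA array, -1.48 in G15 and -1.51 in ICI, against -1.39 in the second control array. BSA was again the highest array, ethanol the next in the set of 8, and ICI and G15 differed from the control array by -0.11 and -0.08.

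CXCL8, interleukin 8, was read by 202859_x_at and 211506_s_at. An ending in x marks probes that may match unrelated transcripts, and an ending in s marks probes shared by several transcripts. Averaged, CXCL8 stood at 2.79 in the first E2-BSA array and 1.94 in the estradiol array, against 2.10 in the first control array. In the set of 8 it stood at 1.20 in BSA, -0.53 in ethanol, -2.02 with E2-BSA and G15, -2.38 in the second E2-BSA array, -2.46 with E2-BSA and ICI, -2.90 in G15 and -2.95 in ICI, against -2.67 in the second control array. Unlike CXCL1 and CXCL3, its BSA array did not reach the arrays of the set of 3. This differed between probe sets: 202859_x_at stood at 1.70 in BSA, against 0.83 in the first control array, whereas 211506_s_at stood at 0.70 in BSA, against 3.36 in that control array.

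CXCL2 had 3 probe sets that disagreed. 209774_x_at ranged over 5.74 across the 11 arrays, from 2.48 in the first E2-BSA array to -3.26 in G15, with BSA at 2.38, ethanol at -0.53 and the second control array at -2.65. The other 2, 1569203_at and 230101_at, ranged over 0.789 and 0.344, so the gene average of CXCL2 carries a diluted share of 1 probe set. Across the 11 arrays, with values centred within each set, 209774_x_at correlated with 207850_at of CXCL3 at r = 0.98 and with 202859_x_at of CXCL8 at 0.98. With its own sister probe sets it correlated at 0.10 and 0.08. These are descriptions over 11 arrays that share a platform. The BSA array, the highest of the set of 8 for 209774_x_at, 207850_at and 202859_x_at, was not left out. Since CXCL1, CXCL2 and CXCL3 are close paralogs and 209774_x_at may match other transcripts, how much of its signal is CXCL2 was not tested.

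CXCL5 and CXCL6, the other pair of close paralogs, hardly differed between arrays. CXCL5, averaged over 3 probe sets, lay between -0.09 in ICI and 0.23 in the first E2-BSA array, and its probe sets ranged over 0.446 to 0.726. CXCL6, on 206336_at alone, lay between -0.24, in the second control array, and a highest value of 0.20 in the first array of E2-BSA. In the set of 8 the range was 0.27 for CXCL5 and 0.33 for CXCL6, against 6.12 for CXCL1, 4.15 for CXCL8 and 3.90 for CXCL3. With BSA and ethanol left aside, the other 6 arrays of that set spanned 1.85 for CXCL1, 0.94 for CXCL8 and 0.76 for CXCL3.

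**Figure D1:**
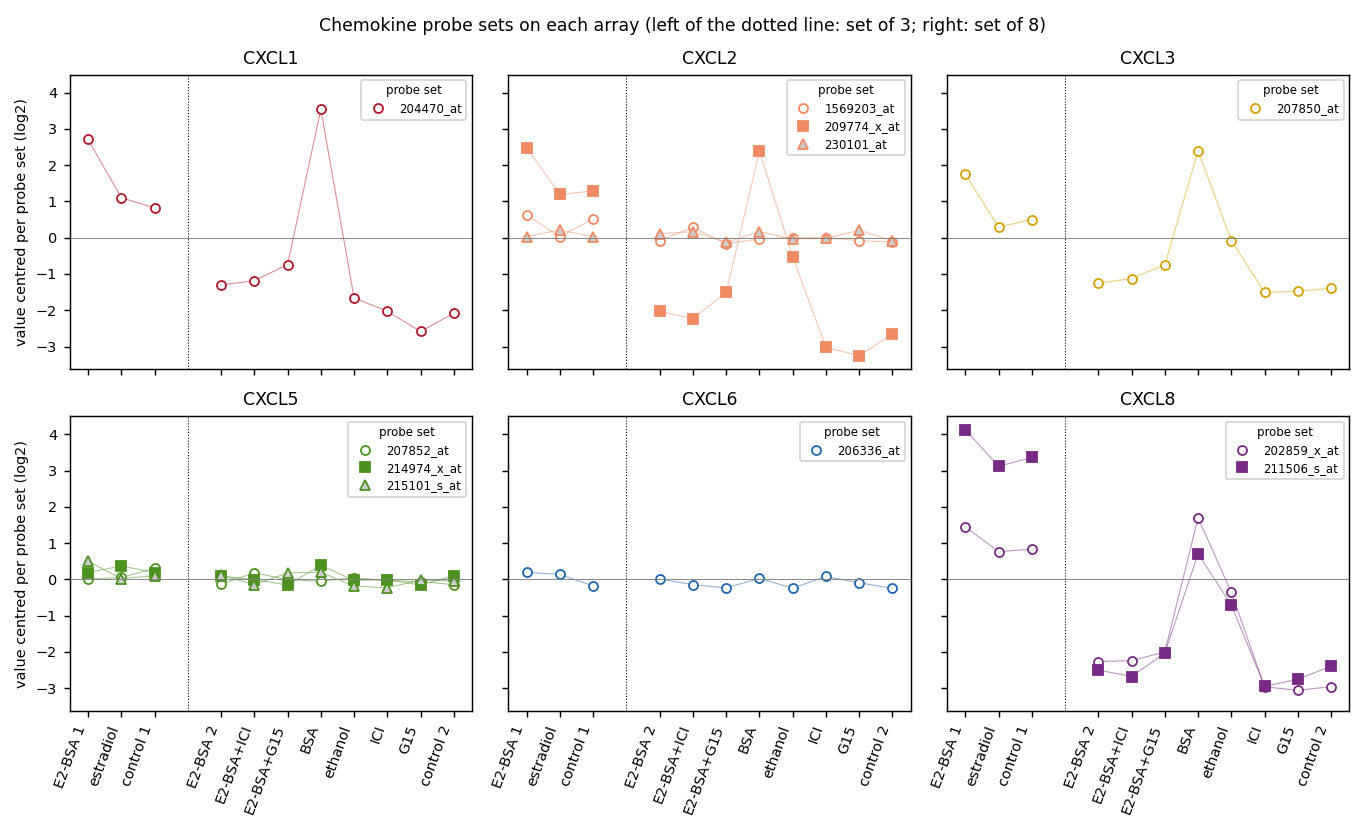
Each panel plots the centred log2 values (vertical axis) of every probe set of a chemokine gene on the 11 arrays (horizontal axis), with the set of 3 left of the dotted line and the set of 8 right of it. CXCL1, CXCL3, CXCL8 and 1 of 3 CXCL2 probe sets stand high in the set of 3 and in the BSA array, whereas the CXCL2 probe sets 1569203_at and 230101_at range over 0.789 and 0.344 and those of CXCL5 over 0.446 to 0.726.

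BSA, the carrier protein without hormone, was set against the second control array, which lies in the same set. CXCL1 was higher by 5.62, the largest difference of all 19775 genes. CXCL8 was higher by 3.88 (2nd), CXCL3 by 3.79 (3rd) and CXCL2 by 1.79 (12th), with 5.02 on 209774_x_at against 0.09 and 0.25 on its sisters. CXCL5 was higher by 0.21 and CXCL6 by 0.27, near the median of all genes, 0.19. Thus 4 of 6 members were higher by more than 1 on the log2 scale, a 2-fold difference, as were 0.202% of all genes. Against the first control array, across the sets, CXCL1 was higher by 2.72 and CXCL3 by 1.89, but CXCL8 differed by -0.89, with 0.87 on 202859_x_at and -2.66 on 211506_s_at. The size, and for CXCL8 the direction, therefore depended on which control array was used.

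The additive fit to all 11 arrays, by limma with a term for the set, put the members at 5.90 ± 0.42 for CXCL1, 4.03 ± 0.32 for CXCL3, 4.03 ± 3.09 for CXCL8, 1.84 ± 0.16 for CXCL2, 0.21 ± 0.13 for CXCL5 and 0.18 ± 0.21 for CXCL6 with BSA over control (SE, 1 BSA array). CXCL1, CXCL2 and CXCL3, 3 of the 6, passed an adjusted p of 0.05 over all genes, as did 0.354% of genes (25 higher and 45 lower). Nothing is read from this, since BSA helped choose the members. The median member stood at 2.93 and the median gene at 0.17. No member passed without a set term, where CXCL1 stood at 4.17 and CXCL3 at 2.80, and CXCL2 stood at 0.14 with x and s probe sets left out. With the first E2-BSA array left out neither CXCL1 (5.81) nor CXCL2 (1.84) passed, and CXCL2 did not without the second E2-BSA or the second control array (1.79 and 1.94).

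The standard error of CXCL8 came from the fit's prior and not from its own scatter. Its residual SD was 0.181, less than that of CXCL1 (0.432) or CXCL3 (0.338). With a variance trend, the prior SD at its mean centred value of -0.72, 2nd lowest of 19775 genes, was 3.08, against 0.127 without a trend. The SE of the BSA difference was 3.09 with the trend and 0.192 without. The trend follows the mean of centred values, which is no measure of brightness.

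**Figure D2:**
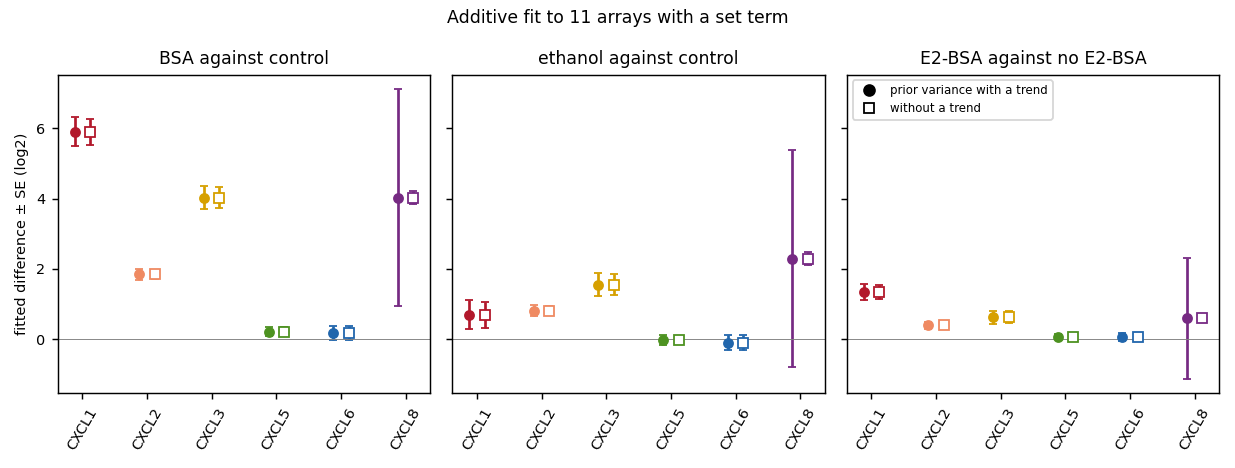
Fitted log2 differences ± SE (vertical axis) of the 6 genes for BSA and for ethanol against control and for E2-BSA present minus absent, with the prior variance following a trend (filled circles) or constant (open squares). The estimates are the same under both, and the error bar of CXCL8 shrinks without the trend, from 3.09 to 0.192 for BSA.

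The labels give 1 µM and the same time for BSA and for E2-BSA. Whether the 1 µM of E2-BSA counts steroid or conjugate is not known here, so matched doses cannot be assumed. The second E2-BSA array differed from the BSA array by -4.84 for CXCL1, -3.64 for CXCL3, -3.58 for CXCL8 and -1.504 for CXCL2. The differences were -0.15 for CXCL5 and -0.02 for CXCL6. Of the 6, 4 were lower by more than 1, as were 0.182% of all genes. In the fit CXCL1 differed by -4.56 ± 0.42, CXCL3 by -3.40 ± 0.32, CXCL2 by -1.45 ± 0.16 and CXCL8 by -3.43 ± 3.09 (SE), and 3 of 6, the first 3 named, passed, against 0.308% of genes. With the second control array or either E2-BSA array left out, none of these 3 passed. The BSA array serves in both this comparison and the one against control, so the second adds no independent evidence.

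Ethanol at 0.1% was compared with the second control array. CXCL8 was higher by 2.14, the 7th largest difference of all genes, with 1.69 and 2.60 on its probe sets, and CXCL3 by 1.31 (23rd). CXCL2 was higher by 0.76, with 2.11 on 209774_x_at, CXCL1 by 0.42, CXCL5 differed by -0.03 and CXCL6 by 0.0018. The order was thus not that of BSA, where CXCL1 led. Of the 6, 2 were higher by more than 1, as were 0.258% of all genes. In the fit none of 6 passed limma's test, with differences of 2.29 ± 3.09 for CXCL8 (SE, adjusted p = 0.974), 1.55 ± 0.32 for CXCL3 (adjusted p = 0.314), 0.82 ± 0.16 for CXCL2 (adjusted p = 0.291) and 0.70 ± 0.42 for CXCL1 (adjusted p = 0.895). Limma called 0.086% of all genes, 17, each of them higher, and 1256 were at an unadjusted p under 0.05. Without the variance trend CXCL8 passed (adjusted p = 0.0081). Without a set term CXCL8 stood at -0.19 and CXCL1 at -1.03.

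**Figure D3:**
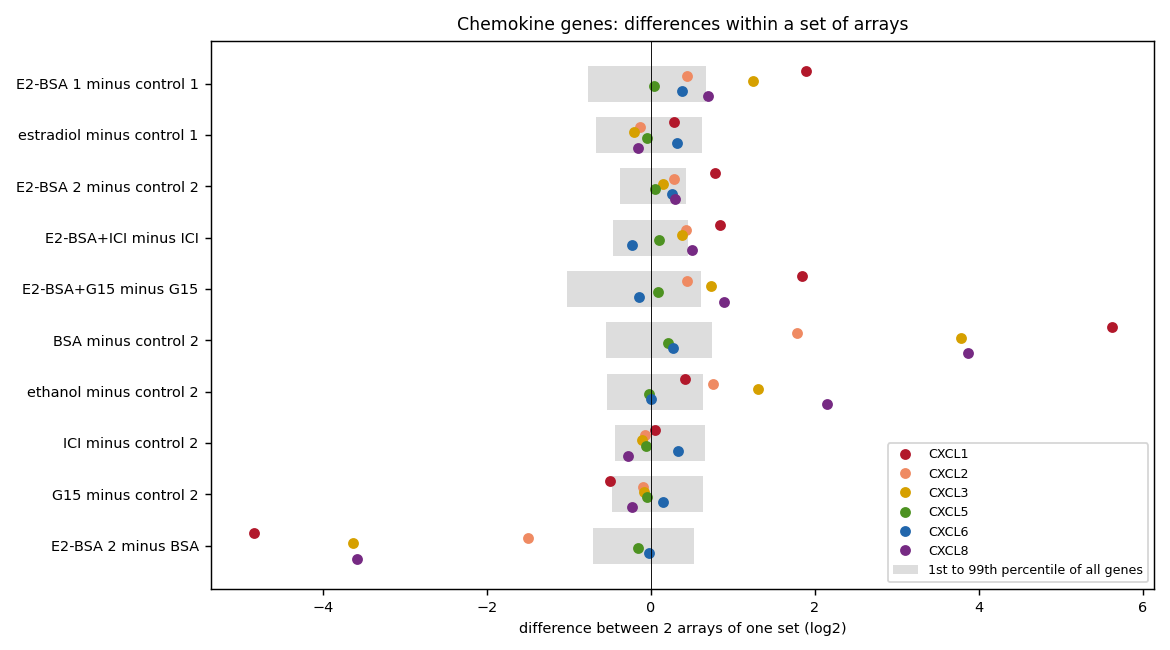
Log2 differences between 2 arrays of the same set (horizontal axis) for 10 comparisons (rows), with a point for each chemokine gene and a grey bar from the 1st to the 99th percentile of all genes. In the BSA row CXCL1, CXCL3, CXCL8 and CXCL2 lie between 1.79 and 5.62, in the ethanol row CXCL8 lies farthest right at 2.14, and in the estradiol, ICI and G15 rows the points lie near the grey bar or within it.

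E2-BSA could be set against its absence in 4 pairs of arrays within a set. For CXCL1, whose 4 differences averaged 1.34 ± 0.61 (SD, 4 pairs), the difference was largest in the first pair, 1.89, and with G15 present, 1.85. CXCL3 differed by 1.25 between the first E2-BSA and control arrays, 0.15 between the second, 0.38 with ICI and 0.73 with G15 present (mean 0.63 ± 0.48). CXCL8 differed by 0.69, 0.29, 0.50 and 0.89 in the same order (mean 0.59 ± 0.26), and CXCL2 by 0.44, 0.28, 0.42 and 0.45 (mean 0.40 ± 0.08). CXCL5 differed by 0.04 to 0.10, and CXCL6 by 0.38, 0.25, -0.23 and -0.14. Hence 5 of 6 members were higher in all 4 pairs, as were 5.14% of genes, which is the pattern the choice drew on. By probe set, 5 of 11 were higher in all 4 pairs, 1 for each of these 5 genes.

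The pairs differed in size. Between the first arrays, 2 of 6 members, CXCL1 and CXCL3, were higher by more than 1 (0.131% of all genes), and with G15 present 1 of 6, CXCL1 (0.263%). Between the second arrays CXCL1 differed by 0.78 and was still the highest of all genes, while no other member passed 0.3. The fit gave 1.34 ± 0.23 for CXCL1, 0.63 ± 0.18 for CXCL3, 0.59 ± 1.71 for CXCL8, 0.40 ± 0.09 for CXCL2, 0.07 ± 0.07 for CXCL5 and 0.06 ± 0.11 for CXCL6 (SE). Limma called 0 members and 0% of genes at an adjusted p of 0.05, with 927 genes at an unadjusted p under 0.05. The median member stood at 0.49 and the median gene at -0.02. Between the second arrays, the CXCL8 probe set 211506_s_at differed by -0.11 while 202859_x_at differed by 0.69, and the CXCL2 difference rested on 209774_x_at, at 0.62 against 0.04 and 0.19 on its sisters.

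**Figure D4:**
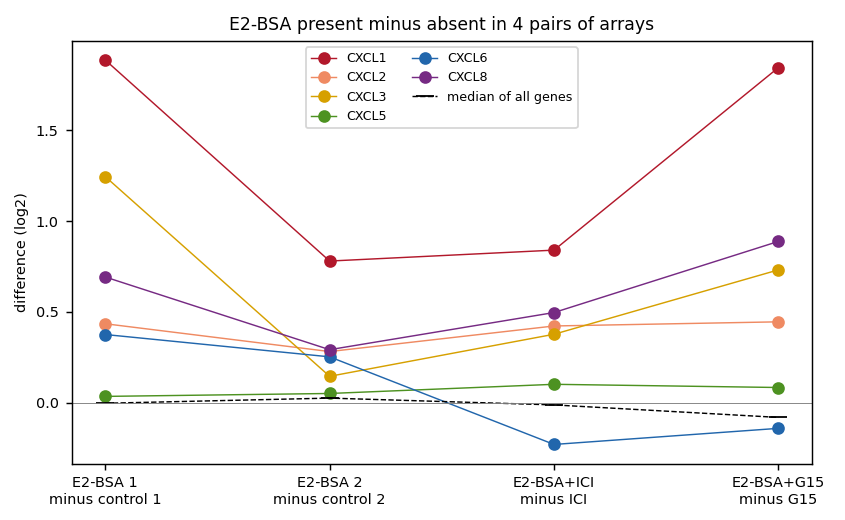
Log2 difference with E2-BSA present minus absent (vertical axis) for each chemokine gene in 4 pairs of arrays (horizontal axis), with the median of all genes as a dashed line. CXCL1 lies highest in every pair, between 0.78 and 1.89, and CXCL6 lies above 0 in 2 pairs and below in 2.

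Free estradiol shares the steroid with E2-BSA but lacks the carrier, and its label also gives 1 µM and the same time. Matched doses of steroid cannot be assumed here either. Its array was compared with the first control array. CXCL1 differed by 0.28, CXCL6 by 0.32, CXCL5 by -0.05, CXCL2 by -0.14, CXCL8 by -0.15 and CXCL3 by -0.21. None was higher by more than 1, as were 0.101% of all genes. In the fit, limma called 0 members and 0% of genes (1397 genes at an unadjusted p under 0.05), and CXCL1 differed by 0.0085 ± 0.42 and CXCL3 by -0.52 ± 0.32 (SE, adjusted p = 0.999 and 0.876 in limma).

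The contrast of E2-BSA over estradiol was added after the data were seen. Since the E2-BSA arrays helped choose the members, its differences and intervals are a description and support nothing. In the set of 3 the first E2-BSA array lay above the estradiol array, which differed from it by -1.60 for CXCL1, -1.45 for CXCL3, -0.85 for CXCL8 and -0.57 for CXCL2. In the fit E2-BSA over estradiol was 1.33 for CXCL1 (95% interval 0.36 to 2.30), 1.14 for CXCL3 (0.39 to 1.89) and 0.55 for CXCL2 (0.18 to 0.93), with adjusted p = 0.497, 0.475 and 0.478 in limma. For CXCL5 it was 0.10 (-0.20 to 0.40), for CXCL6 -0.10 (-0.57 to 0.38) and for CXCL8 0.80 (-6.34 to 7.94). Limma called 0 members and 0% of genes, with 1539 genes at an unadjusted p under 0.05. A p that misses the threshold does not show that the conjugate and the free hormone acted alike, and the estradiol side rests on 1 array.

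The antagonists were given alone and with E2-BSA. ICI alone differed from the second control array by 0.05 for CXCL1, -0.07 for CXCL2, -0.11 for CXCL3, -0.06 for CXCL5, 0.33 for CXCL6 and -0.28 for CXCL8, against a median gene of 0.16. G15 alone differed by -0.50 for CXCL1, -0.10 for CXCL2, -0.08 for CXCL3, -0.05 for CXCL5, 0.15 for CXCL6 and -0.23 for CXCL8, against a median gene of 0.16. Neither antagonist moved a member by more than 1 in either direction, as ICI did 0.137% and G15 0.233% of all genes. The fit, which pools the arrays with and without E2-BSA, called 0 members and 0% of genes for ICI (3219 genes at an unadjusted p under 0.05) and 0 and 0% for G15 (2042). CXCL1 differed by 0.08 ± 0.33 with ICI and by 0.03 ± 0.33 with G15 (SE, limma adjusted p = 0.899 and 0.977).

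With E2-BSA present in both arrays, E2-BSA with ICI differed from the second E2-BSA array by 0.11 for CXCL1, 0.12 for CXCL3 and -0.07 for CXCL8. E2-BSA with G15 differed from it by 0.56 for CXCL1, 0.50 for CXCL3 and 0.37 for CXCL8. For CXCL1 the E2-BSA difference was 1.85 with G15 and 0.84 with ICI, against 1.89 in the first and 0.78 in the second pair of arrays without an antagonist. For CXCL3 it was 0.73 with G15 and 0.38 with ICI, against 1.25 in the first and 0.15 in the second such pair. The differences with an antagonist thus lay between those of the 2 pairs without one for CXCL1 and CXCL3, but not for every member. For CXCL8 the difference with G15, 0.89, lay above both such pairs (0.69 and 0.29), and that with ICI, 0.50, between them. For CXCL2 the difference was 0.446 with G15 and 0.423 with ICI, against 0.435 and 0.282. With either antagonist CXCL5 lay above both pairs and CXCL6 below both. Each of these differences rests on single arrays, and a change of the E2-BSA difference by an antagonist was not tested.

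CXCL1, CXCL2, CXCL3 and CXCL8 differed more between the control arrays of the 2 sets than with any treatment other than BSA. The first control array lay above the second by 4.77 for CXCL8, 2.90 for CXCL1, 1.89 for CXCL3 and 1.56 for CXCL2, and 4 of 6 members were higher by more than 1, as were 3.45% of all genes. CXCL5 differed by 0.22 and CXCL6 by 0.06. The duplicated E2-BSA arrays differed likewise, by 5.17 for CXCL8, the largest of all genes, 4.01 for CXCL1, 2.99 for CXCL3 and 1.71 for CXCL2. For CXCL8, CXCL1, CXCL3 and CXCL2 every array of the set of 3 lay above every array of the set of 8 other than BSA, by at least 2.47, 1.56, 0.37 and 0.66. Both arrays of a duplicated group carry the same label, so the labels do not say what set them apart.

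The receptors and the pathway around these chemokines were taken from lists made with earlier results of these arrays known. With BSA over control, 80.02% of all genes lay above 0 and 0.354% passed, and the counts of each list stand against these shares. The p-values rest on 1 BSA array, which was assumed to vary like the duplicated groups. Of 5 receptor genes 2 lay above 0 and none passed. CXCR1, a receptor of CXCL6 and CXCL8, stood at 0.32 ± 0.14, and CXCR2, the receptor common to the 6 ligands, at 0.23 ± 0.15. The decoy receptor ACKR1, which binds many chemokines without signalling, stood at -0.00089 ± 0.18, and CXCR4 and ACKR3, the receptors of CXCL12, at -0.17 ± 0.14 and -0.24 ± 0.13 (SE). Of the other CXC chemokines 11 of 11 lay above 0 and none passed, with a median of 0.20 against 0.17 for all genes and the highest value, 0.84 ± 0.32, for the interferon-induced CXCL10. Of 22 CC, XC and CX3C chemokines measured, 20 lay above 0 and 1 passed: CCL20, which draws cells bearing CCR6, stood at 1.55 ± 0.17 (limma adjusted p = 0.0126), while CCL2, a monocyte attractant, stood at 0.55 ± 0.25.

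Among genes of NF-kB subunits and inhibitors, 13 of 13 measured lay above 0 with BSA (80.02% of all genes), 5 passed (0.354% of all genes), and their median was 0.96 against 0.17 for all genes. They include the feedback inhibitor TNFAIP3 and the subunit RELB, at 2.99 ± 0.20 and 2.00 ± 0.19, whereas NFKB2 and NFKBIB stood at 0.15 ± 0.16 and 0.30 ± 0.16. Of 12 AP-1 and C/EBP factors 11 lay above 0 and 1 passed, JUNB at 1.40 ± 0.19, with FOS at -0.25 ± 0.25. Of 25 genes of interleukin 1, TNF and Toll-like receptor signalling 23 lay above 0 and none passed, with IL1B at 0.995 ± 0.19 and TLR2 at 0.89 ± 0.16. Of 10 other neutrophil-related cytokines 9 lay above 0 and 3 passed, including IL6 at 2.71 ± 0.14 and CSF3, the granulocyte growth factor, at 1.65 ± 0.23. Of 6 genes that act on AU-rich mRNAs 4 lay above 0 and none passed, with ZFP36, which hastens their decay, at 0.65 ± 0.17. Of the leukocyte markers 9 of 11 lay above 0 with a median of 0.11, and of the breast line markers 8 of 10 with a median of 0.20, none passing.

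With ethanol over control, 54.72% of all genes lay above 0, 0.086% passed and the median gene stood at 0.02. Of the AP-1 and C/EBP factors 11 of 12 lay above 0 and 4 passed, with a median of 0.46: FOS stood at 3.04 ± 0.25 and JUNB at 1.76 ± 0.19 (limma adjusted p = 0.0103 and 0.0251). The ethanol arm is 1 array, so the spread behind these p-values comes from the other groups, and the 17 genes called fell to 0 without a set term, without the second control array or without the second E2-BSA array. Of the NF-kB genes 12 of 13 lay above 0 and 1 passed, TNFAIP3 at 2.36 ± 0.20 (limma adjusted p = 0.0103). FOS stood at -0.25 with BSA and at 3.04 with ethanol, and CXCL1 at 5.90 and 0.70 in the same order. The difference between BSA and ethanol was not tested for these genes. For the remaining lists, medians with ethanol ran from -0.05 for the receptors to 0.17 for the other neutrophil-related cytokines. With E2-BSA no gene of any list passed, and TNFAIP3 stood at 0.79 ± 0.11.

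Genes whose pattern was most like that of the chemokines were found by Pearson's r with the mean of the 6, after centring each gene within its set, over 11 arrays and among 733 other genes with a range of at least 1 in the set of 8. The first 10 were TIFA, an adaptor upstream of NF-kB (r = 0.957), MIR146A, the gene of an NF-kB-induced miRNA (0.954), IL6 (0.945), EFNA1 (0.941), CD83 (0.936), LIF (0.935), G0S2 (0.934), RELB (0.932), IRF1 (0.926) and NFKBIA (0.926). The BSA array dominates these values. Without it, the same 10 correlated at 0.581 (RELB) to 0.853 (G0S2), and the first 5 genes were NR4A2 (0.894), G0S2 (0.853), TNFAIP3 (0.847), FRAT1 (0.836) and OSR2 (0.814), of which 1, G0S2, was among the 10. OSR2 was at -0.23 over 11 arrays. The 11 points share a platform and processing, and 7 of them are single arrays of their group.

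The members themselves, each of which is part of the mean, correlated with it at 0.992 for CXCL3, 0.987 for CXCL2, 0.970 for CXCL1, 0.958 for CXCL8, 0.879 for CXCL5 and 0.275 for CXCL6. Without the BSA array CXCL5 fell to 0.515 and CXCL6 to -0.02, while CXCL3 and CXCL2 stayed at 0.962 and 0.964. The BSA difference of CXCL5, 0.21, was close to that of the median gene, 0.17 in the fit, and stood at 0.09 ± 0.13 (SE) with each array centred on its median. The CXCL5 probe sets differed in their correlation with the probe sets of CXCL1 and CXCL3 over the 11 arrays, with the same centring. It was 0.70 and 0.615 for 214974_x_at and 0.62 and 0.54 for 215101_s_at, but -0.10 and -0.05 for 207852_at.

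**Figure D5:**
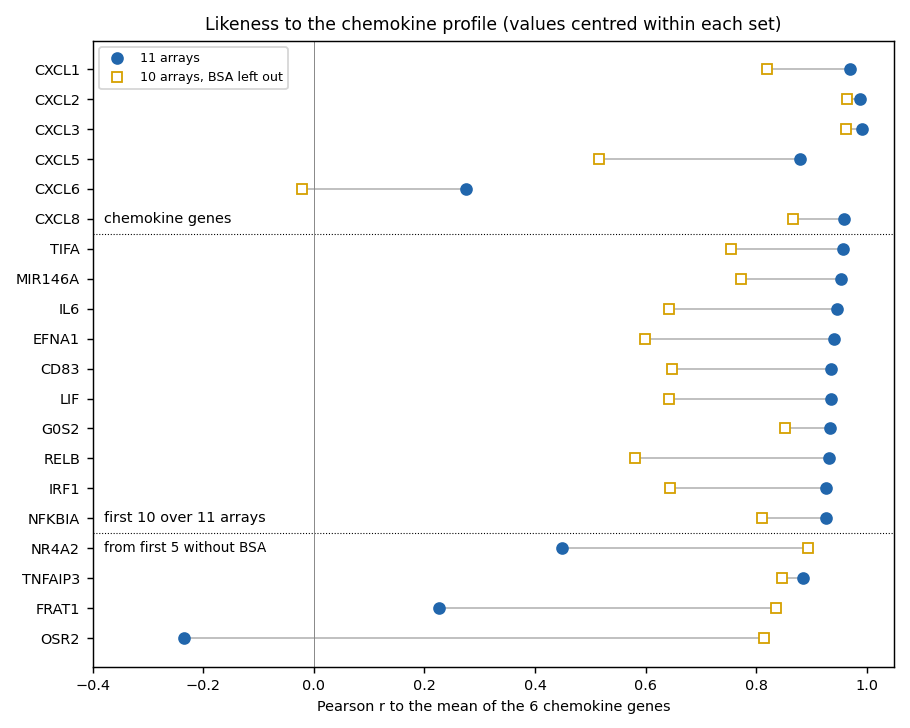
Pearson r with the mean of the 6 chemokine genes (horizontal axis) for the members, the 10 most like genes over 11 arrays and the further genes among the first 5 without the BSA array (rows), over 11 arrays (filled) and without the BSA array (open). TIFA and MIR146A keep 0.755 and 0.773 without BSA, RELB and EFNA1 drop to 0.581 and 0.598, and CXCL6 lies apart from the other members.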

How the data were processed

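The deposited values are log2 values per probe set for 11 arrays; per the labels, RNA was labelled and hybridised by the Affymetrix protocol. How the authors summarised and normalised the arrays, and the log base, are not given in the sources used here, and base 2 was taken. The pair of values closest to 0 was symmetric about 0, to within 1e-05, in 51.7% of probe sets, so the values are centred per probe set, but over more than these arrays, since the median of the 11 is 0 in 0.797%. The number of arrays limits the precision.

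Of 54675 probe sets, 41091 had 1 gene symbol in the platform annotation, 1801 had several, 11721 none and 62 were controls; 41037 gene ids were in the current table and 0 symbols changed. Averaging gave 19775 genes, with no filter on low values. Limma 3.58.1 in R 4.3.3 (lmFit, eBayes with a trend, Benjamini-Hochberg at 0.05) fitted additive terms for E2-BSA, ICI, G15, estradiol, ethanol and BSA plus the set of arrays, with 3 residual degrees of freedom. It was tested on simulated data. Differences between single arrays have no test. The fit takes the spread of groups with a single array from the rest of the arrays. The members, lists and the set term were chosen with earlier results of these data known.

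The genes named are the 6 members, the 2 highest and 2 lowest genes of BSA against control in each list (all receptors), of which some are printed, and the 10 and 5 genes of like pattern; FOS, JUNB and TNFAIP3 are given again for ethanol. Alternatives changed the set term, arrays, additivity, normalization, prior variance, probe sets and the duplicates kept.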

Additional observations from a re-analysis of the deposited data

How the results depend on the processing

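The counts of genes called were the least stable values. BSA against control called 70 genes, but 5 without a set term, 174 with the most variable probe set per gene, and 4 to 58 with a duplicate left out (4 without the second control array, 5 without the second E2-BSA array). E2-BSA against BSA called 61, but 0 without a set term, 157 with the most variable probe set, and 0 to 47 with a duplicate left out (0 without the second control or the second E2-BSA array). Ethanol called 17, but 0 without a set term or with the most variable probe set, 41 after quantile normalization, 10 without x and s probe sets, and 0 to 15 with a duplicate left out (11 without the first control array, 0 without the second control or the second E2-BSA array). ICI called 2 after quantile normalization and otherwise 0, and estradiol, G15, E2-BSA against its absence and E2-BSA against estradiol called 0 under each alternative run. The replicate block, fitted to the 4 control and E2-BSA arrays, called 0 genes too, and no member's E2-BSA call changed. Deviations of the control and E2-BSA duplicates from their group means correlated at r = 0.814 between equal numbers, and these numbers coincide with the sets.

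The median member difference for BSA, 2.79, moved to 4.22 with the most variable probe set and to 0.27 without x and s probe sets, when CXCL8 drops out and 5 members remain; for ethanol 0.59 moved to 0.87 and 0.19, and for E2-BSA 0.49 moved to 0.065 without x and s probe sets. Signs turned for CXCL5 with E2-BSA (-0.0038 without x and s probe sets), for CXCL6 with E2-BSA (-0.039 in the set of 8 alone, and -0.039 to 0.0021 with a duplicate left out), and for ethanol in CXCL1 (-1.03 without a set term, -0.23 after quantile normalization), CXCL2 (-0.00067) and CXCL8 (-0.19), both without a set term. CXCL1 with BSA lost its call without a set term, after quantile normalization (6.43, adjusted p = 0.315) and without the first E2-BSA array (5.81, adjusted p = 0.215), CXCL3 without a set term, and CXCL2 under 6 of 13 alternatives; CXCL8 gained one without a trend (adjusted p = 8.8e-04) and with a robust prior (adjusted p = 0.0185). Over 20 member results and 262 alternative values, 220 kept direction and side of the threshold, 29 lost a call, 5 gained one and 8 turned sign. All 29 losses fell on CXCL1, CXCL2 and CXCL3 with BSA over control or E2-BSA against BSA, the only results with a call to lose. Of 13 alternatives for each of these, 1 to 6 lost the call in the former comparison and 4 to 9 in the latter. Of the 10 like genes, 3 were among the first 10 by Spearman's rank correlation and 8 in the set of 8. The cause was not tested, beyond the fewer arrays or probe sets that an alternative leaves.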
